A study of Mus musculus with 2 samples.

Results

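Of the 17938 genes listed for the 2 plates, 10 that mark pericytes are described here, namely Rgs5, Pdgfrb, Kcnj8, Abcc9, Notch3, Higd1b, Ndufa4l2, Cox4i2, Cspg4 and Mcam. They are textbook markers of the cell type, chosen by name with earlier results of these data known, and all 10 were listed on both plates. Pericytes are the contractile support cells that sit on the outer face of capillaries, inside the basement membrane that they share with the endothelium. They depend on PDGF-B made by endothelial cells and read by PDGFRβ, keep their mural state through NOTCH3, and in most tissues are known by high Rgs5 and by a potassium channel that responds to ATP. The promoter of the αSMA gene (Acta2) is active in smooth muscle and in some pericytes, so mural cells are among those that a Cre driven by it can label.

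Single Tomato+ cells of tibia and femur periosteum were sorted from small pools of female mice in which tamoxifen had switched on an αSMA-driven CreER, so that a cell and its progeny kept the Ai9 Tomato label. Tamoxifen was given as 2 doses of 75 mg/kg at every time point. The 2-day cells came from aSMACreER/Ai9/Col2.3GFP mice aged 10.3 weeks after a chase of 2 days, and the 6-week cells from the same genotype at 14.4 weeks of age after 43 days. The 13-week cells came from mice aged 20.1 weeks after 96 days that carried aSMACreER/Ai9 with R26-M2rtTA and TetOP-H2B-GFP and had received doxycycline before the chase, so effects of chase cannot be told apart from those of strain and age there. Cells of 2 days and 13 weeks filled 1 plate and those of 6 weeks the other, and chase, age and plate likewise cannot be told apart for the latter. By these ages and chases, the mice were also younger at tamoxifen the longer the chase. The sort gate took live Tomato+ cells with no antibody staining, so it rested on the label and on no endothelial or mural surface marker. Each time point is 1 pool of mice, and wells are not replicates: no test between time points was possible, and every interval below is a 95% counting interval. Intervals of levels and of their ratios cover sampling of molecules only, as if each were drawn independently, and those of shares cover sampling of wells only. Counting error below means that sampling and nothing more.

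Of 192, 216 and 192 wells at 2 days, 6 weeks and 13 weeks, 181, 189 and 133 held 200 or more genes and were kept. Their median depth was 795, 672 and 726 UMIs, where a UMI (unique molecular identifier) is 1 captured mRNA molecule read from its 3′ end. At such depths a gene with few molecules per cell is missed in most wells. Detection was therefore compared after each well had been thinned at random to 300 UMIs, which 483 of the 503 kept wells reached, and the exact share expected over all possible thinnings is given beside it where the random draw mattered. The plates reused 1 barcode set, and the used wells of both shared 216 barcodes.

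Rgs5, an inhibitor of G protein signaling that shortens the response of mural cells to vasoconstrictors, held most of the signal, with 645 of the 1101 UMIs of the 10 genes (58.6%). Kcnj8 and Abcc9, which form the pore and the regulatory subunit of the mural ATP-sensitive potassium channel, were among the members most often found with it. The bases before the RefSeq start sites of these 3 genes (GRCm38.p6) are shown because their transcripts were found in the same wells. Rgs5 lies on the plus strand (chr1:169655251-169655500), Kcnj8 on the minus strand (chr6:142571615-142571864) and Abcc9 on the minus strand (chr6:142702275-142702524), each as 250 bases read 5′ to 3′ toward the start site, with capitals for TGGGAA, the letters bound by RBPJ, which carries Notch signals to DNA.
Rgs5: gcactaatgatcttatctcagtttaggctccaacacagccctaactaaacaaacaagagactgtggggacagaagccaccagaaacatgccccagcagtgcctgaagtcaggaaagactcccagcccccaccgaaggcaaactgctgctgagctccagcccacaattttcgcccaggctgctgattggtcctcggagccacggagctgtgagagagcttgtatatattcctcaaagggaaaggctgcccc
Kcnj8: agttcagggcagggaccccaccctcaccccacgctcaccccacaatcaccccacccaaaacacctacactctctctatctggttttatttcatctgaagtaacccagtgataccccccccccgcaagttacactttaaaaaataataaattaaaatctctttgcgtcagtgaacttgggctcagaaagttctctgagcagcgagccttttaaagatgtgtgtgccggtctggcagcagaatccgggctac
Abcc9: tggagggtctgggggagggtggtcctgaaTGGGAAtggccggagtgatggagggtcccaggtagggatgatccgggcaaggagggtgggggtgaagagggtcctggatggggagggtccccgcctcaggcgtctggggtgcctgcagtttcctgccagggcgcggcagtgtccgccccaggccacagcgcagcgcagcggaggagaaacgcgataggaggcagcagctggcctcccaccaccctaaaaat
Kcnj8 and Abcc9 are neighbors, with 16.2 kb between them on chromosome 6. The promoter table held 6 of the 10 members. On either strand, TGGGAA was found before Abcc9 only among these 6, from 221 to 216 bases before the start, against 21.6% of the 32851 promoters. ACGTG, the core of the site of hypoxia-inducible factors, was found before Notch3 only, against 16.6%, and the CArG box, the site of serum response factor in smooth muscle genes, before none of the 6, against 1.47%. The motifs overlapped none of the others in these windows, and a match or its lack is only a statement about letters.

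Rgs5 was present at 10.05 UMIs per 10000 at 2 days (95% exact Poisson interval 8.60 to 11.7, 172 UMIs), 16.5 at 6 weeks (14.5 to 18.6, 258 UMIs) and 18.2 at 13 weeks (15.9 to 20.9, 215 UMIs). The level was higher at both late time points than at 2 days beyond counting error, by 1.64 times at 6 weeks (1.35 to 2.00) and 1.82 times at 13 weeks (1.48 to 2.23), while 6 and 13 weeks did not differ beyond it (1.11 times, 0.921 to 1.33). With every well given equal weight, as the mean over wells of the UMIs per 10000, the levels were 17.5, 19.02 and 23.7, so that 2 days and 6 weeks lay close together. The share of wells with Rgs5 at 300 UMIs was 26 of 175 (14.9%, exact Clopper-Pearson interval 9.94 to 21.0%), 33 of 182 (18.1%, 12.8 to 24.5%) and 25 of 126 (19.8%, 13.3 to 27.9%). These shares did not separate: the difference between 13 weeks and 2 days was 4.98 percentage points with an interval of -4.01 to 14.4. Without thinning, Rgs5 was seen in 19.3%, 23.8% and 28.6% of wells. A pooled level cannot tell more wells with Rgs5 from more molecules per well.

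The number of Rgs5 UMIs varied widely between the wells that held it. At 2 days, 6 weeks and 13 weeks the highest well had 20, 72 and 23 Rgs5 UMIs and the median well with Rgs5 had 3, 4 and 3. A single Rgs5 UMI was held by 11, 13 and 10 of these wells, and 5 or more by 13 of 35, 21 of 45 and 16 of 38. Relative to the depth of the well, the median was 58.8, 52.5 and 65.3 per 10000 and the highest 438, 257 and 222, so that the ranges of the time points overlapped. The well with 72 UMIs alone carried 27.9% of the 6-week Rgs5 UMIs. Without the top well of each time point, the levels were 8.92, 12.1 and 16.9. The ratio of 6 weeks to 2 days was then 1.35 (1.09 to 1.69) in place of 1.64, and that of 13 weeks to 2 days 1.89 (1.52 to 2.35). The ratio of 13 to 6 weeks was 1.39 (1.13 to 1.72), outside its interval with all wells (0.921 to 1.33). The top 3 wells of each time point held 27.9%, 38.4% and 25.1% of its Rgs5 UMIs. Such clumping in wells is not covered by the intervals of levels and ratios, and the shares of wells did not separate.

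**Figure D1:**
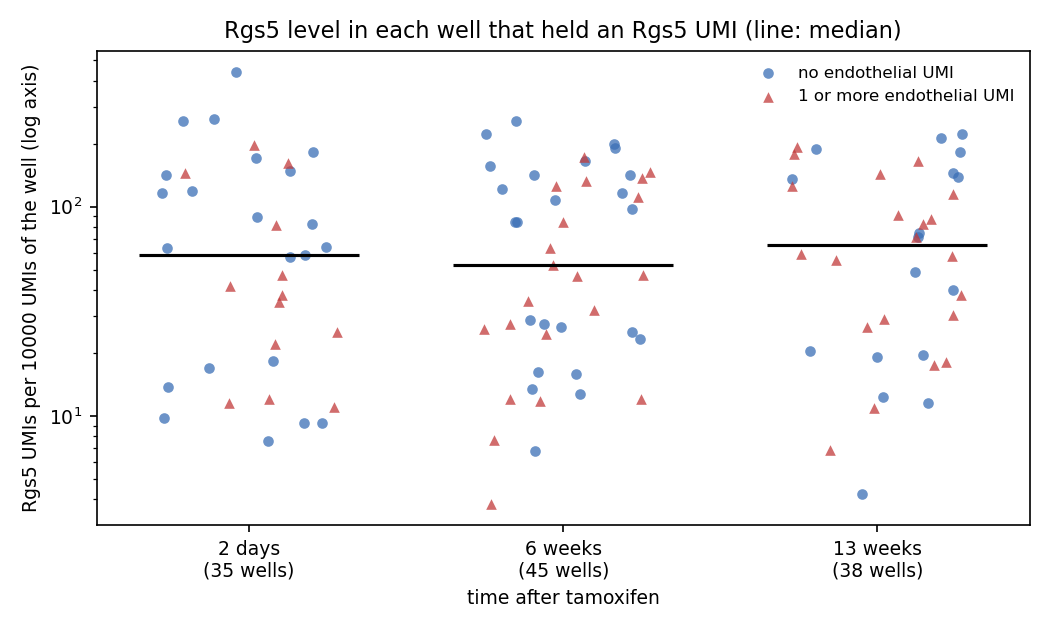
Rgs5 UMIs per 10000 UMIs of the well, on a log axis, in each of the 35, 45 and 38 wells that held Rgs5 at 2 days, 6 weeks and 13 weeks. Triangles are wells with 1 or more UMI of the endothelial list, circles are wells with none, and lines are medians (58.8, 52.5 and 65.3). The ranges of the 3 time points overlap.

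Endothelial transcripts were higher at the later time points too. A UMI of the 11 endothelial genes (Pecam1, Cdh5, Kdr, Flt1, Tek, Tie1, Emcn, Egfl7, Cldn5, Vwf and Ptprb) was held by 11.05%, 18.5% and 29.3% of the kept wells in order of time, and the summed level of the list was 3.33, 11.2 and 16.7 per 10000. Wells with such a UMI held 33.7%, 32.9% and 66.5% of all Rgs5 UMIs at the 3 time points, and 11.6%, 21.2% and 32.3% of the UMIs of all genes. In wells with no endothelial UMI the Rgs5 level was 7.53 at 2 days (6.21 to 9.05), 14.01 at 6 weeks (12.00 to 16.3) and 9.03 at 13 weeks (7.06 to 11.4). There the difference between 13 weeks and 2 days was no longer beyond counting error (1.20 times, 0.879 to 1.62), and the 13-week level was below that of 6 weeks (0.644 times, 0.482 to 0.853). That last difference rested on the well with 72 Rgs5 UMIs, which held no endothelial UMI. Without the top Rgs5 well of each time point, the levels in wells with no endothelial UMI were 6.24 at 2 days, 8.37 at 6 weeks (6.82 to 10.2) and 7.34 at 13 weeks (5.57 to 9.49), the ratio of 13 to 6 weeks was 0.877 (0.624 to 1.22) and that of 6 weeks to 2 days 1.34 (1.00 to 1.79), so that the intervals of the 3 levels overlapped. With only the 72-UMI well left out, the 6-week level of 8.37 lay below the 9.03 of 13 weeks. In wells with an endothelial UMI the Rgs5 level was 29.2, 25.5 and 37.6. There too the difference between 13 weeks and 2 days was not beyond counting error (1.29 times, 0.943 to 1.78). The ratio of 6 weeks to 2 days was 0.875 (0.619 to 1.24) and that of 13 to 6 weeks 1.47 (1.12 to 1.95). The part of endothelial transcripts in the Rgs5 level was not tested beyond this split. Other marker lists also differed between the time points. The summed level of the 9 smooth muscle genes was 12.03 per 10000 at 2 days, 16.6 at 6 weeks and 27.1 at 13 weeks, with Acta2 2.02 times (1.49 to 2.74) and Myh11 7.59 times (3.68 to 17.6) as high at 13 weeks as at 2 days, and that of 8 fibroblast genes was 210, 198 and 117, with Col3a1 0.306 times as high (0.267 to 0.350). Without the well highest in the list at each time point, the smooth muscle list stood at 10.9, 11.8 and 20.4 and the fibroblast list at 203, 189 and 108. The red blood list stood at 17.7, 29.2 and 39.6, but at 1.76, 0.706 and 2.49 without its top wells. The skeletal muscle list stood at 15.3, 24.5 and 24.4 (3.76, 18.9 and 14.5 without them) and the osteoblast list at 23.3, 23.9 and 1.36 (3.01, 22.7 and 0.941). The part of these lists in the levels of the pericyte genes was not tested.

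**Figure D2:**
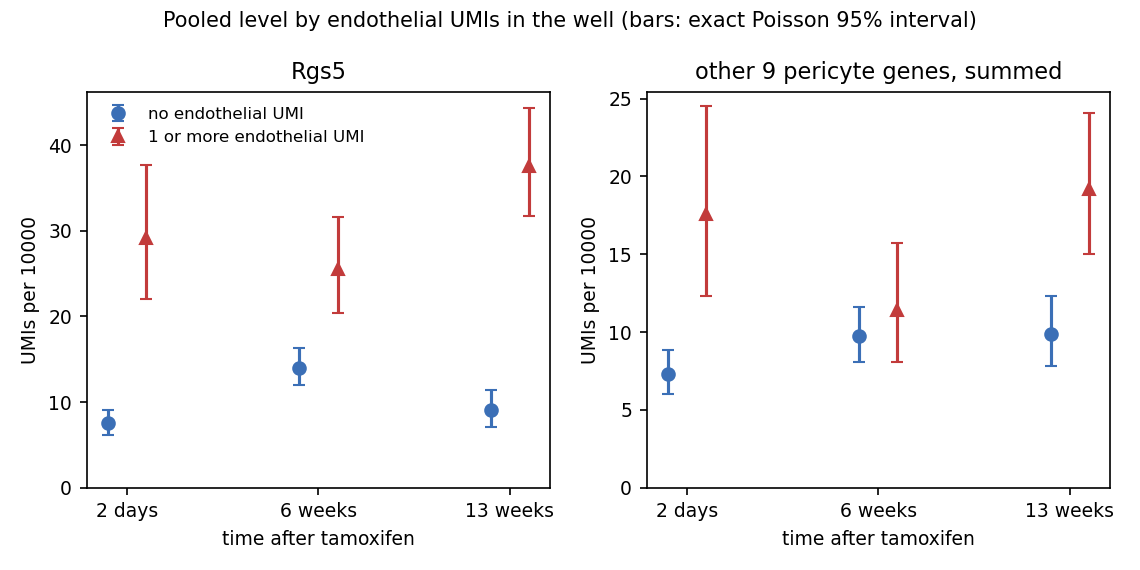
Pooled level in UMIs per 10000 of Rgs5 (left) and of the other 9 pericyte genes summed (right) by time after tamoxifen, in wells with no UMI of the endothelial list (circles) and with 1 or more (triangles). Bars are exact Poisson 95% intervals. The Rgs5 level at 13 weeks was 9.03 in the former wells and 37.6 in the latter.

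The other 9 genes together were present at 8.53 per 10000 at 2 days (7.20 to 10.03), 10.1 at 6 weeks (8.57 to 11.8) and 12.9 at 13 weeks (10.9 to 15.1), a ratio of 13 weeks to 2 days of 1.51 (1.20 to 1.91). In wells with no endothelial UMI this ratio was 1.35 (0.999 to 1.82). Levels of different genes are set side by side below as UMIs per 10000, a count of 3′ ends into which transcript length does not enter.

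Neither receptor differed in level beyond counting error. Pdgfrb, the receptor for PDGF-B through which endothelial cells recruit pericytes, followed Rgs5 in abundance with 52, 52 and 46 UMIs, or 3.04, 3.32 and 3.90 per 10000. Its ratio of 13 weeks to 2 days was 1.29 (0.845 to 1.95), and the counts allow any ratio within those limits. Without thinning it was seen in nearly as many wells as Rgs5, 109 against 118 of 503, with at most 4 UMIs in a well. Notch3, the Notch receptor of mural cells, had 26, 20 and 15 UMIs, or 1.52, 1.28 and 1.27 per 10000, with a ratio of 0.838 (0.413 to 1.64).

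The channel subunits gave unlike values. Kcnj8 did not differ beyond counting error, with 19, 19 and 14 UMIs (1.11, 1.21 and 1.19 per 10000) and a ratio of 13 weeks to 2 days of 1.07 (0.497 to 2.25). This ratio was 1.90 (0.667 to 5.39) in wells with no endothelial UMI, on 9 UMIs both at 2 days and at 13 weeks, and 0.261 (0.0701 to 0.839) in wells with one, on 5 against 10. Abcc9 had 3 UMIs at 2 days and 16 at each later time point, or 0.175, 1.02 and 1.36 per 10000. Its ratio to 2 days was 5.82 at 6 weeks (1.67 to 31.2) and 7.75 at 13 weeks (2.22 to 41.5), and it was 17.1 (2.37 to 748) at 13 weeks in wells with no endothelial UMI, where 2 days held 1 UMI and 13 weeks 9. The 2-day level thus rested on 3 molecules in 3 wells.

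Among the mitochondrial members, Ndufa4l2, a relative of the complex IV subunit NDUFA4 that responds to low oxygen, had 16, 15 and 24 UMIs (0.935, 0.957 and 2.04 per 10000), and its ratio of 13 weeks to 2 days was 2.18 (1.11 to 4.39). In wells with no endothelial UMI that ratio was 1.72 (0.657 to 4.47). Cox4i2, the alternative form of a cytochrome c oxidase subunit, had 1, 8 and 9 UMIs, a ratio of 13.1 that rests on a single 2-day molecule (1.81 to 573). In wells with no endothelial UMI its ratio was 5.69 (0.457 to 299). Higd1b, of a family of inner membrane proteins induced by hypoxia, had 18, 10 and 9 UMIs (1.05, 0.638 and 0.764 per 10000), with a ratio of 0.727 (0.288 to 1.70). Over all wells, Ndufa4l2 and Cox4i2 were thus higher at 13 weeks beyond counting error, in wells with no endothelial UMI neither was, and the interval of Higd1b spanned no difference.

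In UMIs pooled over the 3 time points, the surface proteoglycan and adhesion molecule used to sort pericytes were the scarcest members with Cox4i2. This order did not hold at each time point: Abcc9 (0.175) was below both at 2 days, and Higd1b (0.638 and 0.764) was below Cspg4 at 6 and 13 weeks. Cspg4, which encodes NG2, had 5, 12 and 13 UMIs (0.292, 0.765 and 1.10 per 10000), and its ratio of 13 weeks to 2 days was 3.78 (1.26 to 13.5). In wells with no endothelial UMI that ratio was 6.32 (1.63 to 35.8), on 10 UMIs against 3. Mcam, which encodes CD146, had 6 UMIs at each time point (0.350, 0.383 and 0.509 per 10000), with a ratio of 1.45 (0.388 to 5.44).

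Detection at equal depth did not separate most members where their levels did. Between 13 weeks and 2 days the share of wells at 300 UMIs differed by 3.62 percentage points for Abcc9 (-0.567 to 9.03), 5.08 for Ndufa4l2 (-0.407 to 11.5) and 0.889 for Cspg4 (-3.27 to 5.92), each with an interval that spanned 0. For Cox4i2 it was 3.97 (0.582 to 9.02).

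At 13 weeks against 2 days, 5 of the 10 members were 1.5 times or more higher (Rgs5, Abcc9, Ndufa4l2, Cox4i2 and Cspg4) and none was 1.5 times lower. Of the 2365 genes with 20 or more UMIs at those time points, 15.3% were that much higher and 19.3% that much lower. Only 6 members reached 20 UMIs, and 2 of these (Rgs5 and Ndufa4l2) were past the higher limit. At 6 weeks against 2 days, 4 of the 10 were past the higher limit (Rgs5, Abcc9, Cox4i2 and Cspg4) and Higd1b was past the lower, against 19.8% and 12.4% of 2812 genes. The intervals of Cspg4 (2.62 times, 0.860 to 9.50) and Higd1b (0.607 times, 0.250 to 1.39) spanned no difference. Of the 6 members that reached 20 UMIs there, Rgs5 was past the higher limit and Higd1b past the lower. The median ratio of 13 weeks to 2 days, with 0.5 UMI added to each count, was 1.18 over the 6 members with 20 or more UMIs and 0.961 over all genes with as many, and that of 6 weeks to 2 days was 1.06 and 1.03. Over all 10 members, of which 4 were scarcer than that, the medians were 1.63 and 1.09.

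**Figure D3:**
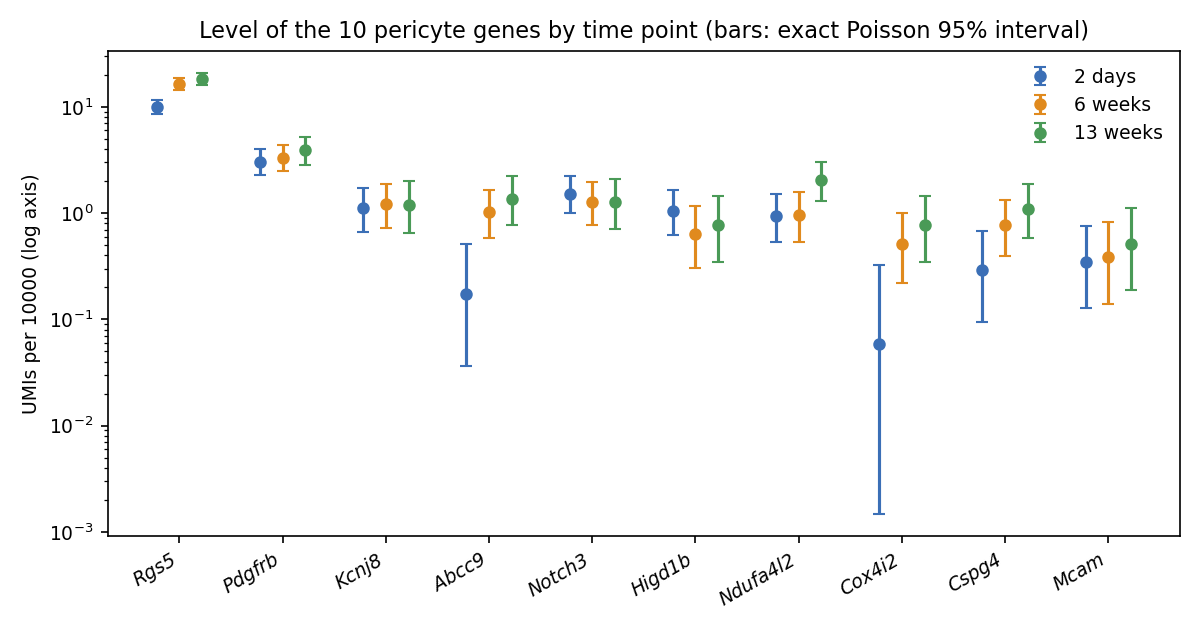
Level of each of the 10 genes in UMIs per 10000, on a log axis, at 2 days, 6 weeks and 13 weeks. Bars are exact Poisson 95% intervals. Rgs5 lies between 10.05 and 18.2, Pdgfrb between 3.04 and 3.90, and Abcc9, Cox4i2 and Cspg4 start lowest at 2 days, from 0.0584 to 0.292.

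Co-detection asks whether the members were found in the same cells. At 300 UMIs, 84 wells held Rgs5 and 399 did not. At least 1 of the other 9 genes was found in 43 of the 84 (51.2%, 40.0 to 62.3%) and in 60 of the 399 (15.04%, 11.7 to 18.9%), a difference of 36.2 percentage points (24.3 to 47.7). The share expected over all thinnings was 59.7% against 14.0%. With the time points pooled, each of the 9 genes was at least 2 times as frequent in wells with Rgs5, where 11.4% of the 1504 genes seen in 15 or more wells were. Only 4 members (Pdgfrb, Kcnj8, Notch3 and Ndufa4l2) were seen in 15 or more wells themselves, and all 4 passed. The median ratio of shares was 4.58 over these 4 members and 0.988 over the 1504 genes. Over all 9 members it was 6.05, with 5 members too rare for that comparison.

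In the draw the ratio was steepest for the channel pair and Mcam. Kcnj8 was found in 15 of 84 wells with Rgs5 (17.9%) and 5 of 399 without (1.25%), so that 75.0% of its wells held Rgs5 (50.9 to 91.3%). Abcc9 was found in 12 and 2 wells, and 85.7% of its wells held Rgs5 (57.2 to 98.2%). Mcam was found in 7 and 1, but here the draw mattered. Over all thinnings its shares were 5.19% and 0.416%, a ratio of 12.5, close to the 11.7 of Higd1b. The same subunits also met each other: 6 wells held both Kcnj8 and Abcc9, against 0.625 wells for the product of their shares, as a description without a test.

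Pdgfrb and Notch3 were less tied to these wells in the draw. Pdgfrb was found in 18 wells with Rgs5 (21.4%, expected 26.8%) and in 22 without (5.51%, expected 6.31%), so that 45.0% of Pdgfrb wells held Rgs5 (29.3 to 61.5%), or 47.97% over all thinnings. Notch3 was found in 11 and 13 wells (13.1% and 3.26%), and 45.8% of its wells held Rgs5 (25.6 to 67.2%). For Notch3 the draw mattered: over all thinnings the shares were 15.96% and 2.32%, and 59.9% of its wells held Rgs5. Of the 18 Pdgfrb wells with Rgs5, 16 held a UMI of the 9 smooth muscle genes (88.9%, 65.3 to 98.6%) and 4 a UMI of the 7 tendon genes (22.2%, 6.41 to 47.6%). Of the 22 without Rgs5, 6 held a smooth muscle UMI (27.3%, 10.7 to 50.2%) and 18 a tendon UMI (81.8%, 59.7 to 94.8%). The corresponding intervals did not overlap. Part of this contrast is that of all wells: smooth muscle UMIs were held by 46.4% of all wells with Rgs5 and 24.8% of all without, and tendon UMIs by 32.1% and 59.6%, so that smooth muscle UMIs in Pdgfrb wells without Rgs5 stood at the general share.

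The mitochondrial and surface members gave fewer wells. Ndufa4l2 was found in 11 wells with Rgs5 (13.1%) and 10 without (2.51%), Higd1b in 7 and 4, Cox4i2 in 4 and 3, and Cspg4 in 5 and 5 (5.95% and 1.25%). Over all thinnings the shares were 15.4% and 1.88% for Ndufa4l2 and 12.9% and 1.11% for Higd1b, further apart than in the draw. They were 6.16% and 0.639% for Cox4i2 and 5.97% and 1.11% for Cspg4. For Cspg4 and Cox4i2 the lower limit of the difference was near 0, at 0.381 and 0.276 percentage points. For 5 of the 9 members (Abcc9, Ndufa4l2, Cox4i2, Notch3 and Pdgfrb) at least 30.3% of the wells without thinning rested on a single read, the highest share being 43.8% for Cox4i2, so that their rarer detections rest on thin data.

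**Figure D4:**
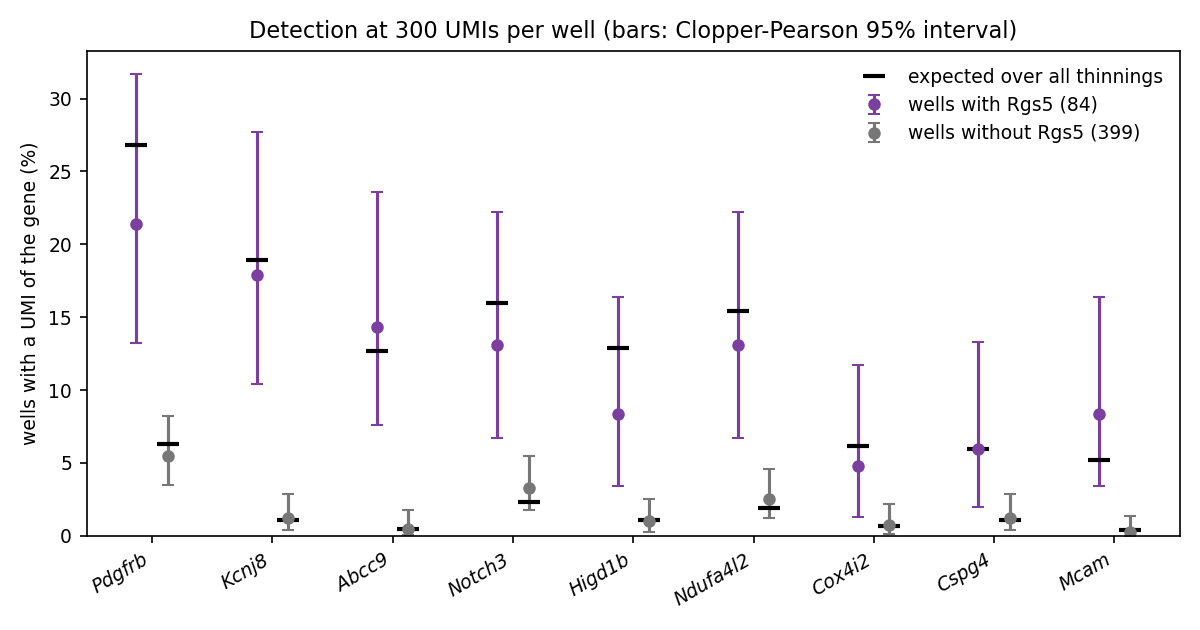
Share of wells, in percent, with a UMI of each of the 9 other genes among 300 UMIs, in the 84 wells with Rgs5 and the 399 without. Bars are Clopper-Pearson 95% intervals and black dashes are the shares expected over all thinnings. Kcnj8 stands at 17.9% against 1.25% and Pdgfrb at 21.4% against 5.51%.

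By time point, 14 of 26, 12 of 33 and 17 of 25 wells with Rgs5 held another member (53.8%, 36.4% and 68.0%), against 23 of 149, 20 of 149 and 17 of 101 wells without (15.4%, 13.4% and 16.8%). The shares were thus higher in wells with Rgs5 at every time point. The expected shares in wells with Rgs5 were 69.8%, 51.5% and 61.0%, in which 2 days rather than 13 weeks stood highest, so no order between 2 days and 13 weeks can be read. Kcnj8 was found in 4, 6 and 5 wells with Rgs5. Ndufa4l2 was found in 1 of 26, 3 of 33 and 7 of 25, but its shares over all thinnings were 14.9%, 9.86% and 23.4%, so that its low value at 2 days belonged to the draw. At 6 weeks Cox4i2 and Cspg4 were each found in 0 of 33 wells with Rgs5 and 2 of 149 without. Over all thinnings their 6-week shares were 4.66% and 1.24% for Cox4i2 and 2.85% and 1.73% for Cspg4. In the draw Cox4i2 was found with Rgs5 only at 13 weeks, in 4 of 25 wells.

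Several members in 1 well were seen almost only together with Rgs5. Of the wells with Rgs5, 28 of 84 held 2 or more of the other 9 (33.3%, 23.4 to 44.5%), and 1 held 7. Of the wells without, 5 of 399 held 2 (1.25%, 0.408 to 2.90%) and none held 3 or more, an exact upper limit of 0.920%. Of the 36 pairs that leave Rgs5 out, 32 were seen together in at least 1 well of the draw. For most pairs the product of the shares was under 1 well, which any shared well exceeds. It was 1 or more for 6 pairs, 5 of them with Pdgfrb, and these were found together 2.32 to 3.60 times as often as the product. The 4 pairs not seen in the draw were Kcnj8 with Mcam, Higd1b with Cox4i2, Higd1b with Mcam and Cox4i2 with Mcam, which without thinning were together in 1, 4, 2 and 1 wells.

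The other members were found more often where more Rgs5 molecules were. For this comparison wells were thinned to 300 UMIs of genes other than Rgs5 and classed by their whole Rgs5 count. Another member was found in 45 of 371 wells with no Rgs5 UMI (12.1%, 8.99 to 15.9%), 6 of 32 with 1 (18.8%, 7.21 to 36.4%), 15 of 31 with 2 to 4 (48.4%, 30.2 to 66.9%) and 27 of 46 with 5 or more (58.7%, 43.2 to 73.0%). Wells with a single Rgs5 UMI thus differed from wells with none by less than counting error in the pericyte genes. They differed in the endothelial list, which was found in 10 of the 32 (31.2%, 16.1 to 50.01%) and in 18 of the 371 (4.85%, 2.90 to 7.56%). The smooth muscle list stood at 19.1% with no Rgs5 UMI and at 60.9% with 5 or more (45.4 to 74.9%), while the tendon list stood at 60.9% and 23.9% (12.6 to 38.8%) and the fibroblast list (8 genes, among them Pdgfra, Dcn and Col3a1) at 88.1% and 69.6% (54.2 to 82.3%).

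**Figure D5:**
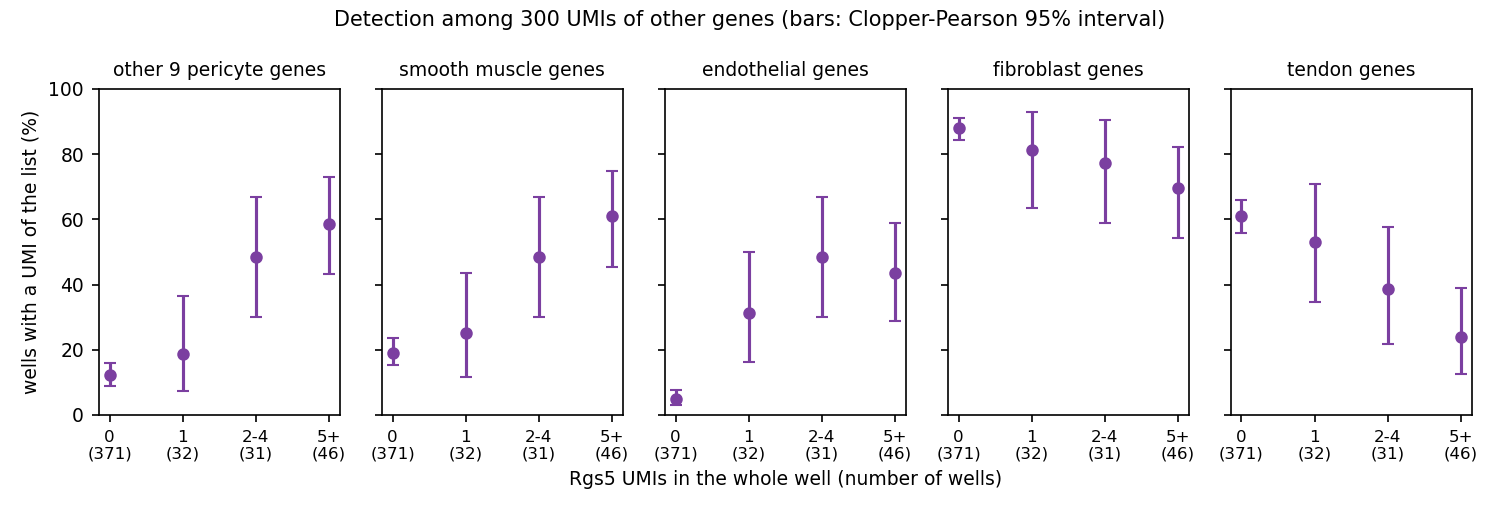
Share of wells, in percent, with a UMI of the other 9 pericyte genes and of 4 marker lists among 300 UMIs of genes other than Rgs5, by the Rgs5 UMIs of the whole well (0, 1, 2 to 4, 5 or more; number of wells in brackets). Bars are Clopper-Pearson 95% intervals. The pericyte genes stand at 12.1%, 18.8%, 48.4% and 58.7%, and the tendon list at 60.9% and 23.9% in the first and last class.

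The members were also counted in wells defined by markers of other cell types, which were not shown to hold no mural cell. Of 174 wells with 5 or more UMIs of the tendon list (median 788 UMIs), 3 held Rgs5 (1.72%, 0.357 to 4.96%), 2 Kcnj8 and none Abcc9 or Mcam, but 16 held Pdgfrb (9.20%, 5.35 to 14.5%). Nearly all of these wells are among the 399 without Rgs5, where Pdgfrb was found in 5.51%, so the 2 shares are not independent. Of 59 wells with a satellite cell gene (Pax7, Cdh15, Myf5 or Myod1, median 832 UMIs), 5 held Notch3 (8.47%, 2.81 to 18.7%), 5 held Rgs5 and none Pdgfrb, Higd1b, Ndufa4l2, Cox4i2 or Cspg4. Kcnj8 and Abcc9 were held by 2 each and Mcam by 1. At least 1 of the other 9 members was found in 15.3% of the satellite wells and 16.7% of the tendon wells, near the 15.04% of all wells without Rgs5. Notch3 in wells without Rgs5 (3.26%) lay between its share in the satellite wells and that in the tendon wells, where 2 of 174 held it (1.15%, 0.140 to 4.09%), with most of these wells again among those without Rgs5. Of 17 wells with 5 or more skeletal muscle UMIs, 2 held Rgs5 and 1 held Kcnj8.

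Endothelial genes were also more frequent in wells with Rgs5. The list was found in 29 of 84 such wells (34.5%, 24.5 to 45.7%) and 36 of 399 others (9.02%, 6.40 to 12.3%), with Pecam1, the CD31 antigen, in 8 and 5 wells, Kdr, a VEGF receptor, in 8 and 3, and Flt1 in 11 and 18. Among the 392 wells with no endothelial UMI at any depth, another member was found in 26 of 48 with Rgs5 (54.2%, 39.2 to 68.6%) and 48 of 344 without (14.0%, 10.5 to 18.1%). In the 91 wells with an endothelial UMI the shares were 17 of 36 (47.2%) and 12 of 55 (21.8%). The difference between the classes was thus as large in wells without endothelial transcripts, where Abcc9 was found in 6 of 48 wells with Rgs5 and 0 of 344 without (exact upper limit 1.07%). Whether wells with both kinds of transcript held 1 cell or 2 was not tested.

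The smooth muscle genes overlapped in part. Myh11, the myosin of mature smooth muscle, was found in 8 wells with Rgs5 (9.52%) and 7 without (1.75%), Myl9 in 20 and 38 (23.8% and 9.52%) and Acta2 itself, whose promoter drives the Cre, in 13 and 37 (15.5% and 9.27%). Cnn1 and Lmod1, of the contractile apparatus, were found in no well with Rgs5 and in 2 and 3 without, too few to compare. The intervals of the classes did not overlap for Myh11 and Myl9 and overlapped for the other 7 of the 9 genes.

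Relatives of the members were counted in the same wells. Of the 11 measured genes of the same families, Pdgfra was found in 2 wells with Rgs5 and 19 without (2.38% and 4.76%), Notch2 in 0 and 12, Higd1a in 0 and 11, Ndufa4 in 5 and 45 (5.95% and 11.3%) and Cox4i1 in 16 and 99 (19.0% and 24.8%). The shares of these 5 did not stand higher with Rgs5, and their intervals overlapped between the classes. Those of their mural counterparts Pdgfrb, Notch3, Higd1b and Ndufa4l2 stood higher with Rgs5, with intervals that did not overlap. The share of Cox4i2 stood higher too, but its intervals overlapped (1.31 to 11.7% and 0.155 to 2.18%). Rgs4 (3 and 3 wells) and Rgs16 (4 and 2) stood higher with Rgs5, at ratios of 4.71 and 8.47. Like those of Cox4i2, their intervals overlapped between the classes (0.743 to 10.1% and 0.155 to 2.18% for Rgs4, 1.31 to 11.7% and 0.0608 to 1.80% for Rgs16). Rgs2 (4 and 21) stood at a ratio of 0.985 in the draw, but its shares over all thinnings were 2.46% with Rgs5 and 5.49% without, a ratio of 0.447. Notch1 was found in 1 and 2 wells, and Notch4 and Abcc8 each in 0 and 1. Of the 3 Rgs genes, Notch1, Notch4 and Abcc8, all but Rgs2 were seen in too few wells to compare. Notch2, Higd1a, Higd1b and Cox4i2 were likewise seen in fewer than 15 wells. Both genes reached that minimum only for Pdgfra with Pdgfrb and Ndufa4 with Ndufa4l2. Of the ligands, Pdgfb was found in 0 and 1 wells, Pdgfd in 1 and 2, Dll4 in 1 and 0 and Jag1 in 1 and 9, and of the Notch targets Heyl in 5 and 7 (5.95% and 1.75%), Hes1 in 11 and 34 and Hey1 in 0 and 3.

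A further 7 pericyte genes were measured as a group (Vtn, Anpep, Gucy1a3, Gucy1b3, Foxs1, Steap4 and Tbx18). At least 1 was found in 26 of 84 wells with Rgs5 (31.0%, 21.3 to 42.0%) and 24 of 399 without (6.02%, 3.89 to 8.82%). Steap4, a metalloreductase, was found in 13 and 8 wells, the subunits of the nitric oxide receptor Gucy1a3 in 9 and 4 and Gucy1b3 in 5 and 2, and Vtn, which encodes vitronectin, in 7 and 4. Foxs1 and Tbx18 were found in no well with Rgs5 and in 1 and 2 others.

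Among the 1504 genes, the likeness of a pattern to that of Rgs5 was measured as the lowest of its 3 ratios of shares, 1 for each time point. The 10 most alike were Rasgrp2 (lowest ratio 6.54), Kcnj8 (6.37), Epas1, a subunit of a hypoxia-inducible factor (5.77), Ndrg2 (5.04), Fabp4 (5.02), Cd36, a fatty acid receptor (4.85), Senp6 (3.92), Steap4 (3.92), the chemokine Cxcl12 (3.76) and Ptprb (3.43). In this draw Kcnj8 was the sole member among them. Fabp4, a fatty acid carrier of capillary endothelium and adipocytes, was found in 44 of 84 wells with Rgs5 (52.4%) and 32 of 399 without (8.02%), more than any member other than Rgs5. Pdgfrb ranked 21, Notch3 25 and Ndufa4l2 67, and the other 5 members were seen in fewer than 15 wells and not ranked. The order depended on the random draw. With the shares over all thinnings, 6 of the 10 remained (Rasgrp2, Kcnj8, Steap4, Cd36, Fabp4 and Epas1), joined by Gpihbp1, Esam, Notch3 and Sept4, and Notch3 ranked 9, Ndufa4l2 11 and Pdgfrb 16. The offset alone gives a gene found in no well a ratio of 5.56, 4.41 and 3.92 at the 3 time points, so that the ratios of genes seen in few wells are no measure of likeness.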

How the data were processed

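Single αSMA-labeled cells were sorted 1 to a well and sequenced by a plate form of Drop-seq with UMIs. The authors aligned reads with STAR 2.5.4a to GRCm38, after bcl2fastq 2.18.0.12 and Picard 2.9.3 per the labels, and used Drop-seq tools to count genes in each well. Both the UMI counts and the read counts were deposited as they came from that step, with no scaling and no wells removed, and UMI counts were used except where reads are named. The 168 wells assigned to no time point were left out. Genes listed on 1 plate only counted as 0 on the other. No doublet caller was run.

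Wells with 200 or more genes were kept and thinned without replacement to 300 UMIs (seed 0). Levels are pooled UMIs per 10000. Shares carry exact Clopper-Pearson and levels exact Poisson 95% intervals. Differences of shares combine both shares' limits, and ratios use the exact conditional interval. Background counts took genes in 15 or more thinned wells (shares with 0.5 added to the wells with the gene and 1 to all wells) or with 20 or more UMIs. Functions were tested on simulated data. Python 3.11.15, numpy 2.4.6, scipy 1.17.1 and pandas 2.3.3 were used.

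The members, marker lists and tests were chosen with earlier results of these data known. Named were the 10 members, fixed lists of relatives, ligands, targets and markers of other cell types, and the 10 genes most like Rgs5. The 9 smooth muscle genes were Acta2, Tagln, Myh11, Cnn1, Myl9, Mylk, Lmod1, Smtn and Actg2, and the 7 tendon genes were Tnmd, Fmod, Thbs4, Scx, Mkx, Cilp and Cpxm2. Immune, red blood, Schwann, osteoblast and adipocyte lists were found in 0, 8, 0, 25 and 0 of the 84 wells with Rgs5 and in 3, 21, 1, 92 and 2 of the 399 others. The osteoblast list was mostly found at 6 weeks, in 21 of 33 wells with Rgs5 and 79 of 149 others, against 3 of 26 and 9 of 149 at 2 days and 1 of 25 and 4 of 101 at 13 weeks.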

Additional observations from a re-analysis of the deposited data

How the results depend on the processing

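Of the recalculated values, 91 stayed within the counting interval of the main value, or within 1.5 times for a count of genes, and 47 did not. The cause was not tested except where the alternative itself changes depth, wells or the genes measured. Wells with Rgs5 had more of the other members than wells without in every recalculation, from 2.31 times with no thinning to 5.85 times. The share in wells with Rgs5 (51.2%) was 67.1% with another random seed, 67.8% with no thinning, 64.3% without the deepest 5% of wells, 63.3% without wells holding an endothelial UMI in a new random draw, 66.1% with 2 or more Rgs5 UMIs, and 36.4% at 6 weeks and 68.0% at 13 weeks alone. The share in wells without (15.04%) was 9.01% on reads, 11.3% at 200 UMIs, 20.1% at 500 UMIs, 29.4% with no thinning, 10.99% without the deepest wells and 9.77% without Pdgfrb. The exact shares over all thinnings, an alternative chosen after seeing the data, were 59.7% and 14.0%.

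The Rgs5 level at 2 days (10.05) was 8.30 on reads, 11.7 without the deepest wells, 17.5 as a mean over wells and 7.53 without endothelial wells. At 6 weeks (16.5) it was 14.2, 19.0 and 14.0 in the last 3 of these and 12.1 without the top well. At 13 weeks (18.2) it was 15.6 with a minimum of 300 genes, 23.7 as a mean over wells, 9.03 without endothelial wells and 21.9 with mitochondrial genes, Gm26924 and hemoglobin genes out of the total. The sum of the other 9 was 12.1, 11.9 and 18.0 as means over wells, and at 13 weeks 9.80 on reads, 15.5 with the other total and 9.90 without endothelial wells. The Rgs5 share was 28.6% at 13 weeks with no thinning and 8.97% at 2 days without endothelial wells. Without endothelial wells and without the top Rgs5 well, also chosen after seeing the data, the Rgs5 level was 6.24, 8.37 and 7.34 in order of time. The level at 2 days was the lowest of the 3 in every setting for Rgs5, but 6 and 13 weeks changed order on reads, with 300 genes and without endothelial wells. Of the 10 genes most like Rgs5, 6 remained over all thinnings, a further alternative chosen after seeing the data.

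The numbers of genes tested differed between settings, so shares are given. Genes 2 times as frequent with Rgs5 (172, 11.4% of 1504) were 105 on reads (9.75% of 1077), 103 at 200 UMIs (10.9% of 941), 354 with no thinning (7.53% of 4702), 110 without endothelial wells (9.81% of 1121) and 36 in 30 or more wells (5.94% of 606). Genes 1.5 times higher at 13 weeks (362, 15.3% of 2365) were 2699 on reads (32.9% of 8210), 229 without endothelial wells (12.8% of 1791) and 67 with 50 or more UMIs (8.68% of 772), and those lower (457, 19.3%) were 2989 on reads (36.4%) and 137 with 50 or more UMIs (17.7%). No paired analysis was possible because each time point is 1 pool of mice.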
